A study of Homo sapiens with 8 samples.

Results

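The miRNAs described here are the mature products of the miR-10 and miR-196 hairpins, which lie inside the HOX gene clusters. The 7 members were chosen by name, as the rows of hsa-miR-10a-5p, hsa-miR-10a-3p, hsa-miR-10b-5p, hsa-miR-10b-3p, hsa-miR-196a-5p, hsa-miR-196b-5p and hsa-miR-196b-3p in the miRNA count table of the series, which has 1780 named rows. Small RNA was sequenced from DLD1 and HT29, which are established human colorectal adenocarcinoma lines of epithelial origin, grown for 6 days either as a flat monolayer (2D) or as multicellular spheroids (MCS), with 2 biological replicates in each of the 4 groups. DLD1 cells were kept in RPMI and plated at 35000 cells for 2D and 7000 for MCS, and HT29 cells were kept in DMEM and plated at 100000 and 3500 cells. No genetic change or drug was applied in any group, the 2D cells grew in 25 cm2 flasks, and the MCS formed in round wells coated with agarose. DLD1 libraries were made with version V3 of the small RNA kit and HT29 libraries with version V2, so line, medium and kit cannot be told apart. Each line is 1 model, and its replicates are cultures of that line.

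HOX genes code for transcription factors that set the identity of body segments along the head to tail axis, and mammals carry them in 4 clusters. The miR-10 hairpins lie near the HOX4 genes and the miR-196 hairpins near the HOX9 genes, at matching places of several clusters. miRNAs guide Argonaute proteins to messenger RNAs that pair with the seed, bases 2 to 8 of the miRNA, and lower their translation and stability. miR-196 is known for directing cleavage of HOXB8 messenger RNA, miR-10a for binding HOX transcripts, and miR-10b for its study in invasion and metastasis of tumour cells. In the gut, expression of HOX genes and of these miRNAs differs along the length of the bowel.

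On GRCh37, the MIR10A hairpin lies at chr17:46657200-46657309 on the minus strand, inside an intron of HOXB3 and an exon of a long non-coding RNA of the same strand. MIR10B lies at chr2:177015031-177015140 on the plus strand, inside an intron of HOXD3. hsa-miR-196a-5p comes from a pair of hairpins, MIR196A1 at chr17:46709852-46709921 on the minus strand, within the intron of a non-coding HOXB7 transcript, and MIR196A2 at chr12:54385522-54385631 on the plus strand, within an intron of HOXC6. Its counts cannot be divided between these 2 loci. MIR196B lies at chr7:27209099-27209183 on the minus strand, overlapping non-coding transcripts of HOXA9 and, on the other strand, HOXA10-AS. The mature sequences of 6 of the 7 members were found in the RefSeq table, and the name without a match was hsa-miR-10b-5p. They are shown because the seed sets which messages a miRNA can pair with and because near-identical members can share reads. Each is written 5′ to 3′ with the seed in capitals.
hsa-miR-10a-5p: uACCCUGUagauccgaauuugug
hsa-miR-10a-3p: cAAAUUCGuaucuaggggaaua
hsa-miR-10b-3p: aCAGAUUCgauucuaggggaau
hsa-miR-196a-5p: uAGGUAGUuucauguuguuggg
hsa-miR-196b-5p: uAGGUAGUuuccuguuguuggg
hsa-miR-196b-3p: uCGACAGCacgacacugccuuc

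The 6 sequences found fell into 5 seeds, of which only AGGUAGU was held by more than 1 of them. Without a sequence, hsa-miR-10b-5p was not compared with hsa-miR-10a-5p or any other member, by seed or for shared reads. hsa-miR-196a-5p and hsa-miR-196b-5p shared it with no other of the 2370 human mature miRNAs in the table. They differed by a single substitution, A12C, counted from 1 at the 5′ end of hsa-miR-196a-5p, so a read with a mismatch at that base could be counted for the other. The 3p arms of miR-10a and miR-10b had different seeds from each other and from hsa-miR-10a-5p. The known HOXB8 target site in the 3′ untranslated region, at chr17:46690132-46690153 on the minus strand of GRCh37, is shown with the bases opposite the seed in capitals.
HOXB8 site: cccaacaacaugaaACUGCCUa
With hsa-miR-196a-5p, 21 of its 22 bases formed Watson-Crick pairs and 1 formed a G:U pair, opposite base 5 of the miRNA. With hsa-miR-196b-5p, 20 bases formed Watson-Crick pairs, 1 formed the same G:U pair, and base 12 of the miRNA was unpaired. HOXB8 messenger RNA was not measured in these libraries.

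Library totals were 15814475 to 25477315 miRNA counts in DLD1 and 10495634 to 26211524 in HT29. The replicate 1 libraries of HT29, both 2D and MCS, stood apart from the replicate 2 libraries, with a median difference between replicates over all miRNAs of 0.62 to 0.71 on the log2 scale against 0.21 to 0.33 in DLD1. All 7 listed miRNAs of gut and other epithelium (miR-192-5p, miR-194-5p, miR-215-5p, miR-200b-3p, miR-200c-3p, miR-141-3p and miR-375) were counted in every library, with summed levels of 65005 to 241755 counts per 1000000 miRNA counts (CPM). The 4 muscle and stroma miRNAs summed to 4.55 to 92.0 CPM, the endothelial miR-126-3p to 2.19 to 94.0 CPM, and the 3 blood miRNAs found in the table, of 4 listed, to 12.1 to 241 CPM. Red cell miR-451a had 0 to 14 counts in every library. The other blood miRNAs found were higher, with miR-142-3p at 5.81 to 177 CPM and miR-150-5p at 0 to 63.7 CPM. Both were highest in replicate 2 of HT29 MCS. miR-150-5p had no count in DLD1, and miR-142-3p was higher in both DLD1 MCS libraries than in 2D. In DLD1 the epithelial sum, mostly miR-200b-3p and miR-200c-3p, was 91659 and 107046 CPM in 2D and 170543 and 168454 CPM in MCS, higher in both MCS libraries. Of the 7 epithelial miRNAs only miR-215-5p was lower in both, at 87.6 and 94.5 CPM in 2D and 78.6 and 66.9 CPM in MCS. The HT29 sums overlapped between cultures, at 65005 and 176025 CPM in 2D and 136397 and 241755 CPM in MCS. The part of these sums in the results below was not tested. In such bulk libraries, fewer cells of a type and less RNA per cell cannot be told apart.

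hsa-miR-10a-5p was among the 3 most abundant miRNAs of every library, and the other members were far below it. In DLD1 it took 16.2% (95% Wilson interval 16.20 to 16.24) and 15.2% (15.21 to 15.24) of all miRNA counts in 2D, and 18.8% (18.78 to 18.82) and 19.0% (18.98 to 19.01) in MCS. It ranked second in both 2D libraries and first in both MCS libraries. In HT29 it took 47.3% (47.22 to 47.28) and 10.6% (10.57 to 10.59) in replicates 1 and 2 of 2D, and 38.5% (38.51 to 38.57) and 6.57% (6.561 to 6.585) in MCS, so the replicates lay much farther apart than the cultures. These intervals cover counting error only. Without hsa-miR-10a-5p, the other 6 members together held 0.710% to 0.872% of the counts in DLD1 and 0.0716% to 0.238% in HT29.

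**Figure D1:**
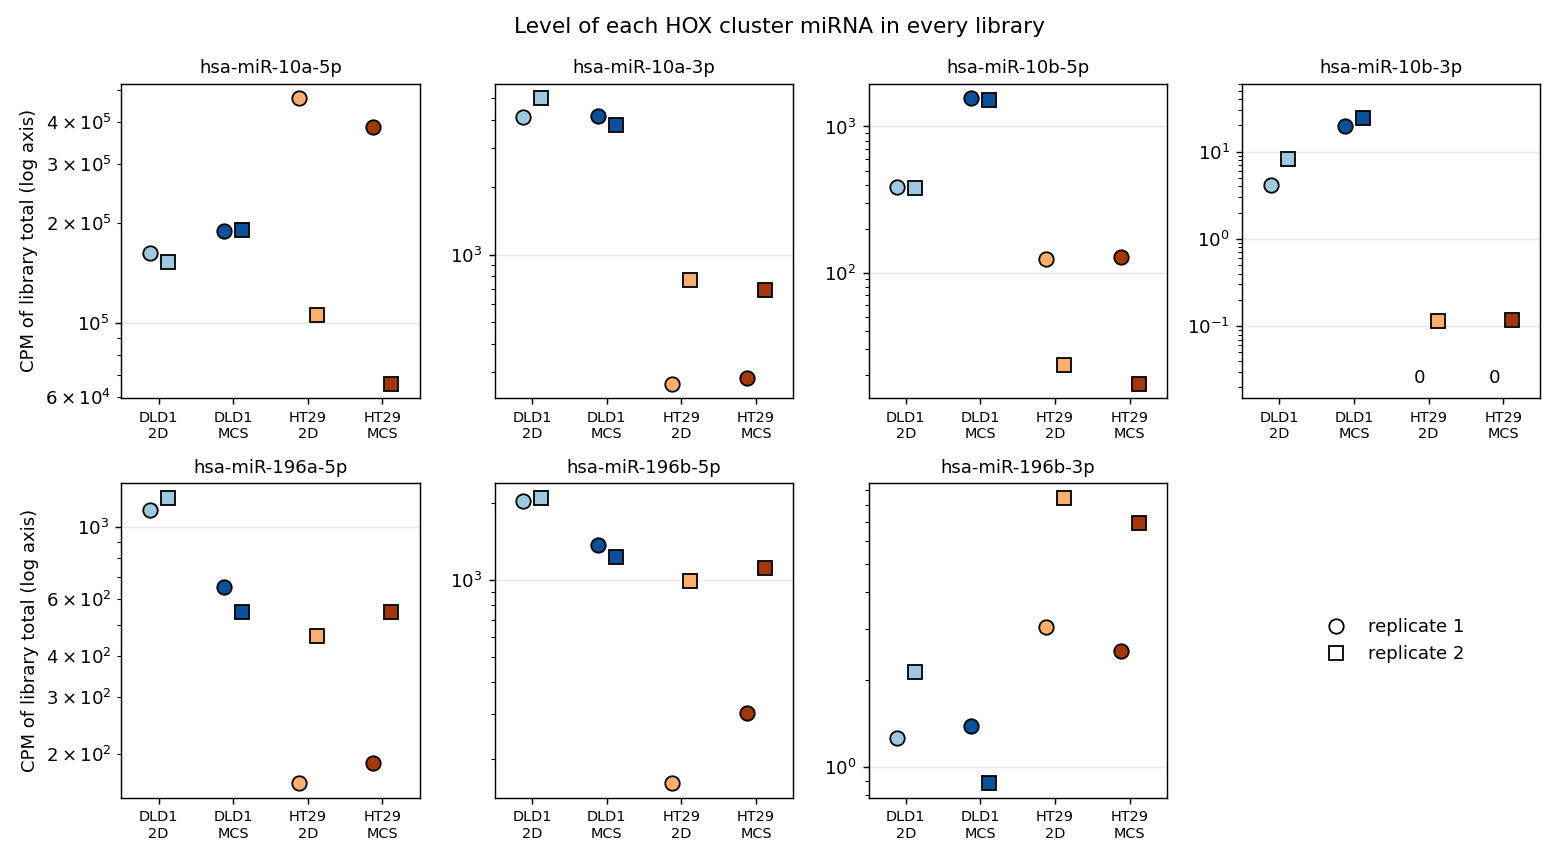
Level of each of the 7 miRNAs in every library, in CPM of the library total on a log axis, with circles for replicate 1 and squares for replicate 2. hsa-miR-10b-5p was higher in both DLD1 MCS libraries (1568 and 1507 CPM) than in 2D (388 and 381 CPM), and in HT29 the replicates of one culture lay apart for every member with counts in both. A 0 marks a library with no count, and each panel has its own axis range.

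The first comparison asked which of these miRNAs changed when DLD1 cells grew as MCS in place of 2D. A miRNA was called when its fold change was at least 1.5 and its adjusted p, from the quasi-likelihood test of edgeR after Benjamini-Hochberg adjustment over all miRNAs tested, was under 0.05. Of the 6 members with a mean of at least 10 CPM, 2 were up-regulated, hsa-miR-10b-5p and hsa-miR-10b-3p, 1 was down-regulated, hsa-miR-196a-5p, and 3 were not called. Of these, hsa-miR-10b-3p reached that mean only through its MCS libraries. The median log2 fold change of the 6 members, 0.42, includes hsa-miR-10b-3p and so supports nothing further. Of all 346 miRNAs tested, 103 were called higher in MCS (29.8%) and 40 lower (11.6%), and the median log2 fold change was 0.23. With library totals alone as the scale, 60 were called higher and 83 lower and the median moved by -0.37.

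hsa-miR-10b-5p, the dominant product of the HOXD hairpin, had the clearest response. Its level was 388 and 381 CPM in 2D and 1568 and 1507 CPM in MCS, so both MCS libraries stood well above both 2D libraries and the replicates lay close together. The fitted fold change was 5.23, or 2.39 on the log2 scale (SE 0.24, adjusted p = 3.96e-20 by edgeR), at place 8 among the rises of all 346. Under the other scalings and tools, and with each library left out, the log2 fold change stayed between 2.00 and 2.41. The call was lost in a single setting, the fit of all 8 libraries together, where the spread of the HT29 libraries enters the estimate (2.36 on the log2 scale, adjusted p = 0.384).

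hsa-miR-10b-3p, the other arm of that hairpin, was scarce and moved the same way. It had 66 and 209 counts in the 2D libraries (4.17 and 8.20 CPM) and 357 and 493 counts in MCS (19.8 and 24.1 CPM). The groups did not overlap, although the 2D replicates differed 1.97-fold in CPM. Its log2 fold change was 2.23 (SE 0.36, adjusted p = 1.54e-08 by edgeR), at place 10 among rises. It passed the 10 CPM minimum only through its MCS libraries, and a member that passes in that way had to differ.

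hsa-miR-196a-5p, which pairs with the HOXB8 site shown above, was lower in MCS. Its level was 1126 and 1230 CPM in 2D and 652 and 548 CPM in MCS, with no overlap. After upper-quartile scaling the values were 1015 and 1054 against 630 and 735 normalized CPM, and the log2 fold change was -0.60 (SE 0.23, adjusted p = 0.0235 by edgeR), just past the 1.5-fold limit. The call was lost with no filter on low counts (adjusted p = 0.109), without replicate 2 of DLD1 2D (adjusted p = 0.0804) and with all 8 libraries fitted together (adjusted p = 0.234), while the log2 fold change kept its sign between -0.97 and -0.60 in every setting run.

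hsa-miR-196b-5p, which has the same seed and comes from the HOXA cluster, measured 2037 and 2095 CPM in 2D and 1374 and 1228 CPM in MCS. Both MCS libraries lay below both 2D libraries. On the normalized scale the gap was smaller, with a log2 fold change of -0.29 (SE 0.23, adjusted p = 0.319 by edgeR), which did not pass. With library totals as the scale it was called, at -0.67 (adjusted p = 0.00363), so its call turned on the scaling.

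The products of miR-10a did not pass the test in DLD1. hsa-miR-10a-5p had a log2 fold change of 0.66 (SE 0.38, adjusted p = 0.149 by edgeR), and its MCS libraries lay above its 2D libraries. It was called by edgeR's exact test (adjusted p = 0.0176) and without replicate 1 of DLD1 MCS (0.71 on the log2 scale, adjusted p = 0.0221). hsa-miR-10a-3p measured 4101 and 5008 CPM in 2D and 4168 and 3788 CPM in MCS, with overlapping groups, and its log2 fold change of 0.19 (SE 0.24, adjusted p = 0.536) turned negative under TMM, DESeq2 and library totals. hsa-miR-196b-3p had 20 and 54 counts in 2D and 25 and 18 in MCS, below the 10 CPM minimum, and was not tested. In all, MCS and 2D libraries did not overlap for 5 of the 7 members, and the same held for 70.8% of the 346 tested miRNAs.

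**Figure D2:**
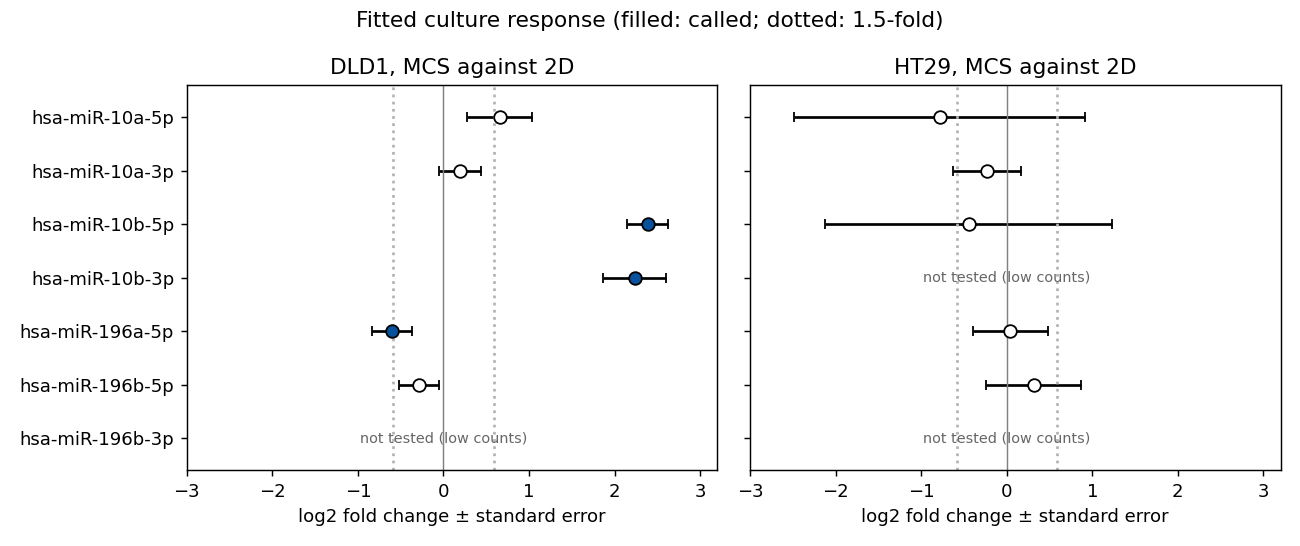
Log2 fold change of MCS against 2D in DLD1 (left) and HT29 (right), with bars of 1 standard error, filled points for called miRNAs and dotted lines at 1.5-fold. In DLD1 hsa-miR-10b-5p (2.39) and hsa-miR-10b-3p (2.23) lay farthest to the right, and in HT29 the bars of hsa-miR-10a-5p (SE 1.70) and hsa-miR-10b-5p (SE 1.68) were the widest.

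**Figure D3:**
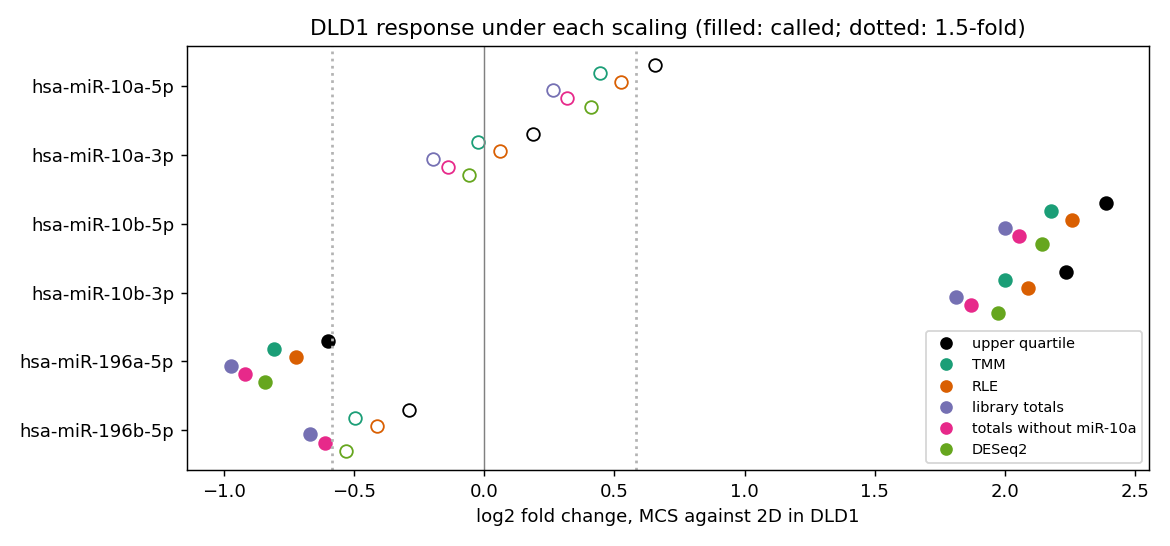
Log2 fold change of each tested member in DLD1 under 6 scalings, with filled points for called miRNAs and dotted lines at 1.5-fold. hsa-miR-10b-5p and hsa-miR-10b-3p were called under each of them, but hsa-miR-10b-3p passed the 10 CPM minimum only through its MCS libraries. hsa-miR-196b-5p was called only with the library totals (-0.67) and the totals without miR-10a (-0.61), and hsa-miR-10a-3p fell on both sides of 0.

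The same comparison in HT29 gave no call. Of 301 miRNAs tested, 0 (0%) were called by edgeR's quasi-likelihood test, with 12 at an unadjusted p under 0.05, and DESeq2 called 12 and edgeR's exact test 5, none of them a member. Of the members, 5 were tested, each with an adjusted p of 0.977, and the median log2 fold change was -0.23, beside 0.03 for all tested. The replicates set the precision, since the biological coefficient of variation was 0.521 here and 0.193 in DLD1.

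hsa-miR-10b-5p in HT29 measured 124 and 23.3 CPM in 2D and 129 and 17.4 CPM in MCS. It was high in both replicate 1 libraries and low in both replicate 2 libraries, so the cultures overlapped, and the log2 fold change was -0.45 (SE 1.68). hsa-miR-10a-5p followed the same split, as its shares above show, with a log2 fold change of -0.78 (SE 1.70). Without replicate 1 of HT29 2D these became 2.71 for hsa-miR-10b-5p and 2.13 for hsa-miR-10a-5p, so 1 library decided their direction. Averaged over both cultures on the normalized scale, replicate 1 exceeded replicate 2 by 15.1-fold for hsa-miR-10b-5p and 13.2-fold for hsa-miR-10a-5p, the 2 largest replicate gaps among the 301 miRNAs.

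The remaining members did not share this gap once scaled. hsa-miR-10a-3p, from the same hairpin as hsa-miR-10a-5p, measured 508 and 466 normalized CPM in 2D and 380 and 448 in MCS. Both MCS libraries lay below both 2D libraries, a pattern that 28.6% of tested miRNAs had in one direction or the other, and in CPM of the library total the groups overlapped. hsa-miR-196a-5p measured 310 and 278 normalized CPM in 2D and 253 and 353 in MCS, with a log2 fold change of 0.04 (SE 0.43). hsa-miR-196b-5p measured 308 and 596 normalized CPM in 2D and 408 and 716 in MCS, with a log2 fold change of 0.31 (SE 0.55). For both miR-196 members the cultures overlapped.

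The scarce arms were at the edge of detection in HT29. hsa-miR-10b-3p had 0 and 3 counts in 2D and 0 and 2 in MCS, and a count of 0 allows up to 0.286 CPM in replicate 1 of 2D and 0.279 CPM in replicate 1 of MCS, where the floor is 3 counts in a library. A change of hsa-miR-10b-3p with culture was therefore not detectable at this depth. hsa-miR-196b-3p had 32 and 222 counts in 2D and 27 and 119 in MCS, and was not tested. On the normalized scale it was 5.84 and 5.10 CPM in 2D and 3.39 and 4.45 CPM in MCS, lower in both MCS libraries, while in CPM of the library total the groups overlapped (3.05 and 8.47 against 2.51 and 6.93). Of all tested miRNAs 28.6% had groups that did not overlap on the normalized scale.

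The difference between the responses of HT29 and DLD1 was tested directly, as an interaction of line and culture over the 250 miRNAs tested in both lines. None was called (0%) by edgeR's quasi-likelihood test, with 23 at an unadjusted p under 0.05, while DESeq2 called 21, none of them a member. For hsa-miR-10b-5p the log2 difference, HT29 minus DLD1, was -2.82 (SE 1.99, adjusted p = 0.749). It was called with no filter on low counts (adjusted p = 0.00649), and without replicate 1 of HT29 2D it was 0.37. On the normalized scale its HT29 values were 238 and 14.1 CPM in replicates 1 and 2 of 2D, and 174 and 11.2 CPM in replicates 1 and 2 of MCS, so without replicate 1 of 2D the low 2D library alone is set against a high and a low MCS library. Whether the lines differed in this response depended on the fit, and with the replicate number as a block the difference was called (-2.79, adjusted p = 0.000204 by edgeR). For hsa-miR-196a-5p the log2 difference was 0.62 (SE 0.39, adjusted p = 0.708), and for hsa-miR-196b-5p it was 0.57 (SE 0.57, adjusted p = 0.822).

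HT29 and DLD1 were next compared at the same culture, which shows the level of each member by line. Of 354 miRNAs tested, 208 were called in 2D (58.8%) and 205 in MCS (57.9%), so a call between the lines was common. How many of all miRNAs had lines that did not overlap was not counted. Such a separation below therefore cannot be called particular to a member. Among the 2D calls 103 were higher in HT29, and with library totals as the scale 44 of 169 were. Kit version, medium and plating density differed with the line and cannot be told apart from it.

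hsa-miR-10a-3p was the member that differed most steadily. It measured 4101 and 5008 CPM in DLD1 2D against 265 and 773 CPM in HT29 2D, and 4168 and 3788 CPM against 282 and 697 CPM in MCS, lower in every HT29 library. The log2 difference was -2.27 in 2D (SE 0.28, adjusted p = 0.000542 by edgeR) and -2.71 in MCS (SE 0.29, adjusted p = 0.000258), and it was called under all 17 alternatives in each culture. In contrast, hsa-miR-10a-5p, cut from the same hairpin, overlapped between the lines in both cultures. Its log2 difference was 2.58 in 2D (SE 1.38, adjusted p = 0.144) and 1.14 in MCS (SE 1.32, adjusted p = 0.476), and it became -0.34 in 2D without replicate 1 of HT29 2D and -1.60 in MCS without replicate 1 of HT29 MCS. It was called higher in HT29 2D by DESeq2 (2.61, adjusted p = 0.0372) and with no filter on low counts (2.58, adjusted p = 1.41e-05 by edgeR). Without replicate 2 of HT29 2D it was also called (3.46).

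In 2D, hsa-miR-196a-5p (162 and 461 CPM in HT29) and hsa-miR-196b-5p (161 and 989 CPM in HT29) were called lower than in DLD1. The log2 differences were -1.04 (SE 0.29, adjusted p = 0.0166 by edgeR) and -1.23 (SE 0.41, adjusted p = 0.0356), but hsa-miR-196a-5p lost its call in 6 and hsa-miR-196b-5p in 10 of 17 alternatives, with the sign kept in each. Both calls were lost with TMM factors and with library totals, that of hsa-miR-196a-5p also with no filter (adjusted p = 0.105), and that of hsa-miR-196b-5p also with RLE factors (0.0879), with DESeq2 (0.0507) and with the 2D libraries alone (0.0656). In MCS the log2 differences were -0.42 (SE 0.29) and -0.66 (SE 0.41), and neither was called. Leaving out either DLD1 2D library also ended both 2D calls, with adjusted p of 0.0659 and 0.109 without replicate 1, and 0.108 and 0.128 without replicate 2. hsa-miR-196a-5p also lost its call without HT29 2D replicate 2 (0.0796). hsa-miR-196b-5p lost its own without HT29 2D replicate 1 (0.119) and without either DLD1 MCS library (0.0680 for both).

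The miR-10b arms were lower in every HT29 library than in any DLD1 library in CPM, though the share of all miRNAs so separated was not counted. The log2 difference of hsa-miR-10b-5p was -0.66 in 2D (SE 1.35, adjusted p = 0.692) and -3.48 in MCS (SE 1.48, adjusted p = 0.0788 by edgeR), neither called. The MCS value was called in 9 of the 17 alternatives, among them DESeq2 (-3.12, adjusted p = 0.0176), library totals (adjusted p = 0.0152), totals without miR-10a (0.0314), the MCS libraries alone (0.00652), a replicate block (0.0314) and no filter on low counts (4.04e-10). It was also called by edgeR without HT29 2D replicate 1 (adjusted p = 0.0194), without HT29 2D replicate 2 (0.0162) and without HT29 MCS replicate 1 (0.0219). The 2D value was called without HT29 2D replicate 1 (-3.81, adjusted p = 0.0464). Pooled over replicates, hsa-miR-10b-3p had 275 counts in DLD1 2D and 3 in HT29 2D, a ratio of levels of 81.5 (95% exact Poisson interval 27.6 to 398). In MCS it had 850 and 2 counts, a ratio of 308 (85.0 to 2548). Those intervals cover counting error only and not the spread between cultures. hsa-miR-196b-3p went the other way, with 1.26 and 2.12 CPM in DLD1 2D against 3.05 and 8.47 in HT29 2D, and 1.38 and 0.880 CPM against 2.51 and 6.93 in MCS. Every HT29 library of hsa-miR-196b-3p was above the DLD1 libraries of its culture, although its 5p arm was not.

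The order of the members by CPM changed with culture in DLD1. In both 2D libraries it ran from hsa-miR-10a-5p through hsa-miR-10a-3p, hsa-miR-196b-5p and hsa-miR-196a-5p to hsa-miR-10b-5p, hsa-miR-10b-3p and hsa-miR-196b-3p. In both MCS libraries hsa-miR-10b-5p had moved up to the third place, above hsa-miR-196b-5p (1507 and 1568 against 1228 and 1374 CPM). Neighbours in these orders did not overlap in CPM. In HT29 the middle of the order was not stable, since hsa-miR-196b-5p stood above hsa-miR-10a-3p in one 2D replicate (989 against 773 CPM) and below it in the other (161 against 265 CPM). The 6 mature forms with a sequence are 22 or 23 bases long, and that of hsa-miR-10b-5p was not found. Counts were compared without a length correction, and how well each sequence is captured by the kit was not tested.

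Ratios of counts within a library do not depend on the scaling, and they were compared as values, with no test. The ratio of hsa-miR-10a-5p to hsa-miR-10b-5p in DLD1 was 418 and 400 in 2D and 120 and 126 in MCS, a 3.32-fold fall with a pooled SD of 0.05 on the log2 scale (n = 2 per culture). In HT29 the same ratio was 3798 and 4531 in 2D and 2988 and 3777 in MCS. It was lower in both MCS libraries by 1.24-fold (pooled SD 0.21 on the log2 scale), although the nearest MCS and 2D values almost met. The ratio varied far less between HT29 replicates than the levels of either form. In HT29 hsa-miR-10b-5p stood at 0.0221% to 0.0335% of hsa-miR-10a-5p, and hsa-miR-10b-3p had at most 3 counts. Whether reads of hsa-miR-10a-5p were partly counted as hsa-miR-10b-5p was not tested. The ratio of hsa-miR-10a-3p to hsa-miR-10b-3p, added after its values were seen, was 983 and 610 in DLD1 2D and 211 and 157 in MCS. It was lower in both MCS libraries, but hsa-miR-10b-3p passed the low-count minimum only through MCS, so this is a description of the 4 libraries and supports nothing further.

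The balance of the arms themselves moved less with culture in DLD1. The ratio of hsa-miR-10b-5p to hsa-miR-10b-3p was 93.1 and 46.4 in 2D against 79.4 and 62.5 in MCS. The ratio of hsa-miR-10a-5p to hsa-miR-10a-3p was 39.6 and 30.4 in 2D and 45.1 and 50.1 in MCS, higher in both MCS libraries by 1.37-fold. In HT29 it was 1781 and 137 in 2D and 1369 and 94.3 in MCS, so the replicates differed 13.0-fold and 14.5-fold (3.70 and 3.86 on the log2 scale). Among 101 hairpins with at least 10 counts of both arms in every library, these were the second largest and the largest such gap, against medians over the hairpins of 1.15 and 1.03 on the log2 scale.

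miR-196b had the opposite difference between lines. The ratio of hsa-miR-196b-5p to hsa-miR-196b-3p was 1611 and 988 in DLD1 2D and 993 and 1396 in DLD1 MCS, but 52.8 and 117 in HT29 2D and 120 and 161 in HT29 MCS. Between the line means in 2D the ratio was 16.1-fold lower in HT29, at place 7 of the 101 hairpins by size, and that of miR-10a was 14.2-fold higher, at place 10. In MCS the differences were 8.46-fold and 7.56-fold, at places 16 and 18. The miR-10a values rested on the HT29 replicate: with replicate 1 alone the difference was 51.4-fold in 2D and 28.8-fold in MCS (places 4 and 2), and with replicate 2 alone 3.95-fold and 1.98-fold (places 37 and 65). For miR-196b they were 23.9-fold and 9.79-fold with replicate 1 alone, and 10.8-fold and 7.32-fold with replicate 2 alone. These values with 1 HT29 replicate were added after the data were seen. The median difference of the 101 hairpins between the lines was 1.47 on the log2 scale in 2D and 1.41 in MCS, so arm ratios differed widely between these libraries in general. The ratio of hsa-miR-196b-5p to hsa-miR-196a-5p, forms of 1 seed, was 1.81 and 1.70 in DLD1 2D, 2.11 and 2.24 in DLD1 MCS, and 0.992 to 2.15 in HT29. It was higher in both DLD1 MCS libraries by 1.24-fold (pooled SD 0.06 on the log2 scale).

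**Figure D4:**
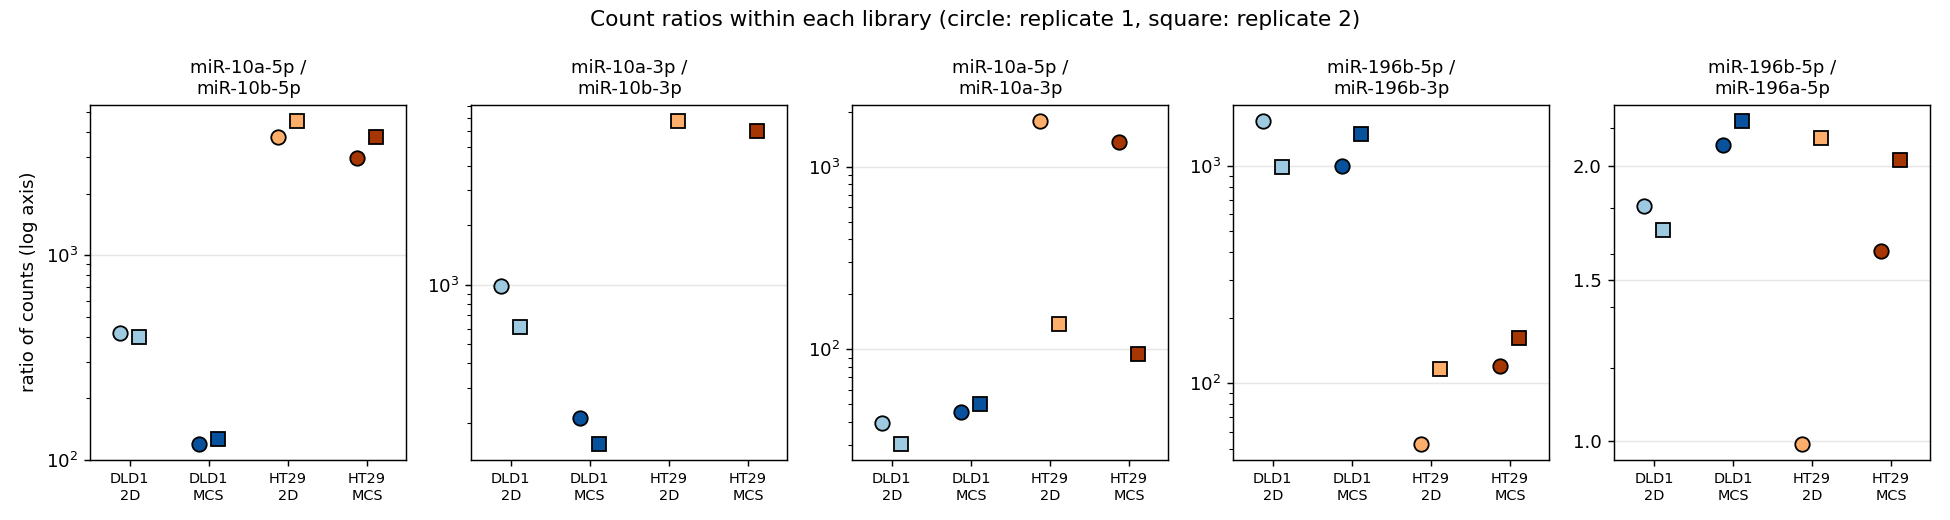
Ratio of counts of paired members within each library, on log axes, with circles for replicate 1 and squares for replicate 2. In DLD1 the hsa-miR-10a-5p to hsa-miR-10b-5p ratio dropped from 418 and 400 in 2D to 120 and 126 in MCS, and the hsa-miR-10a-5p to hsa-miR-10a-3p ratio of HT29 split by replicate (1781 and 1369 against 137 and 94.3). Libraries with 0 counts of hsa-miR-10b-3p have no point in its panel.

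The miRNAs most like each 5p member over the 8 libraries were found among 249 others by the root mean square difference of log2 levels, centred within each line. For hsa-miR-10b-5p the nearest was hsa-miR-10a-5p (0.63), then hsa-miR-183-5p (0.75) and hsa-let-7a-5p (0.78), with a median over all others of 1.61. For hsa-miR-10a-5p it was hsa-miR-183-5p (0.38), then hsa-miR-365a-3p (0.55) and hsa-miR-365b-3p (0.56), with a median of 1.38. hsa-miR-196a-5p was nearest to hsa-miR-1180-3p (0.12), hsa-miR-2277-5p (0.16) and hsa-miR-222-3p (0.17), with a median of 0.54. hsa-miR-196b-5p was nearest to hsa-miR-345-5p (0.17), hsa-miR-200c-5p (0.20) and hsa-miR-425-5p (0.22), with a median of 0.60. The miR-196 members were thus not among the nearest of each other. These distances are dominated by the HT29 replicate gap where it is large, and they describe 8 libraries only.

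The HOX clusters hold further miRNAs, listed by position. Of 6 such mature forms, 4 had a row in the table, and 2 of these were tested in DLD1 and called higher in MCS. Of all 346 miRNAs tested there, 29.8% were called higher. hsa-miR-7704, whose hairpin at chr2:177053571-177053629 overlaps an exon of HOXD1 on the same strand, measured 8.09 and 12.9 CPM in 2D and 37.5 and 25.4 CPM in MCS, higher in both MCS libraries, with a log2 fold change of 1.93 (adjusted p = 3.83e-07 by edgeR). Reads from HOXD1 messenger RNA at that exon cannot be told apart from it. hsa-miR-615-3p, from an intron of HOXC4 and HOXC5 at chr12:54427734-54427829, measured 51.03 and 60.995 CPM in 2D and 86.72 and 61.08 CPM in MCS, so that one MCS library was nearly level with one 2D library. After upper-quartile scaling the values were 46.0 and 52.2 against 83.7 and 81.9 normalized CPM, with a log2 fold change of 0.75 (adjusted p = 0.0208 by edgeR). In HT29 hsa-miR-615-3p measured 35.7 and 70.4 CPM in 2D and 44.3 and 67.3 CPM in MCS and was not called, with a log2 fold change of -0.10 (adjusted p = 0.977). hsa-miR-7704 was at 1.05 to 3.03 CPM in HT29 and was not tested there. hsa-miR-196a-3p and hsa-miR-615-5p had at most 19 counts in any library.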

How the data were processed

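The deposited values are counts: the authors trimmed adapters with cutadapt 1.11, aligned reads with Bowtie2 2.1.0 to hg19 and counted reads per mature miRNA, with tool versions per the submitters' processing notes. Rules for reads matching several miRNAs are not given in the sources used here, and no molecular identifiers were counted. The 15 rows naming no miRNA (at most 0.00988% of a library) were left out. CPM is per library total. Differential expression was computed with edgeR 4.0.16 (R 4.3.3) using quasi-likelihood tests, upper-quartile factors and a minimum mean of 10 CPM in the fit, within each line, and over all 8 libraries for the interaction and the comparison of lines. Standard errors were derived from the F statistic. DESeq2 1.42.0, other scalings and filters, edgeR's exact test, a replicate block and each library left out were alternatives. With 2 against 2 libraries the exact permutation test cannot go below p = 0.333, so it was not used. The script was tested on simulated counts. Hairpins were placed on GRCh37 from GENCODE or, for MIR10A and MIR7704, by matching the hairpin. Sequences are from RefSeq (GRCh38.p14 table), and the target site is from GRCh37. Named miRNAs were the 7 members, the other HOX cluster miRNAs, miR-99 and miR-100, and the 3 nearest in pattern. Members and lists were chosen with earlier results of these data known. Rankings by replicate gap and arm ratio, also with 1 HT29 replicate, were added after the values were seen.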

Additional observations from a re-analysis of the deposited data

How the results depend on the processing

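With the other scalings, filters and tools, and with each library left out, hsa-miR-10a-3p between the lines kept direction and call. So did hsa-miR-10b-5p in DLD1, except with all 8 libraries in 1 fit. hsa-miR-10b-3p in DLD1 kept both wherever it was tested, but it passed the 10 CPM minimum only through its MCS libraries. With 10 CPM required in every library it was not tested, so its calls support nothing further. In DLD1 3 of 6 members tested were called, beside 143 of all 346 miRNAs. These 3 include hsa-miR-10b-3p, as do the DLD1 counts that follow, except that with 10 CPM in every library. With all 8 libraries in 1 fit the count was 1, beside 30 of 346. It was 4 with library totals (143 of all 346), totals without miR-10a (134 of 346) or the exact test (143 of 346). With 10 CPM in every library it was 2 of 5, beside 125 of 305, and with no filter 2 of 7, beside 171 of 1492. hsa-miR-10a-3p in DLD1 turned to -0.0232 with TMM, -0.20 with library totals, -0.14 with totals without miR-10a and -0.0576 with DESeq2, and lay between -0.0534 and 0.18 with a library left out. hsa-miR-196a-5p in HT29 turned to -0.00771 with TMM, -0.0607 with DESeq2 and -0.00539 with all 8 libraries. With a library left out the HT29 log2 fold changes spanned -3.56 to 2.13 for hsa-miR-10a-5p, -3.53 to 2.71 for hsa-miR-10b-5p, -0.24 to 0.24 for hsa-miR-196a-5p and -0.17 to 0.78 for hsa-miR-196b-5p. The interaction of hsa-miR-10a-3p became 0.11 with library totals, and those with a library left out spanned -4.11 to 1.52 for hsa-miR-10a-5p and -5.81 to 0.37 for hsa-miR-10b-5p. Between lines in 2D, hsa-miR-10a-5p spanned -0.34 to 3.46 and hsa-miR-10b-5p -3.81 to 0.24, and in MCS hsa-miR-10a-5p spanned -1.60 to 2.02. The cause of these changes was not tested.

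The interaction called 1 of 7 members with no filter, beside 21 of all 1780 miRNAs. Between lines in 2D, 3 of 5 members were called, beside 208 of all 354 miRNAs. It was 1 with TMM (194 of all 354), 1 with library totals (169 of 354) and 5 of 7 with no filter (409 of 1780). In MCS 1 of 5 was called, beside 205 of 354. It was 2 with library totals (140 of 354), totals without miR-10a (199 of 354) or DESeq2 (215 of 354). With no filter it was 4 of 7 (388 of 1780), and with that culture's libraries alone 3 of 6 (193 of 348). In that last fit hsa-miR-10b-3p passed the 10 CPM minimum only through its DLD1 libraries. Where a library was left out, a fit with 2 libraries against 1 assumes that the lone library varies like the rest.

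Replicates of the same number deviated together (r = 0.321 over 346 miRNAs in DLD1 and 0.789 over 301 in HT29), but with 2 pairs per line the number is not known to mark a shared culture day. With the number as a replicate block, 47 miRNAs were called in HT29 in place of 0, none a member. The block called 2 members in the interaction (hsa-miR-10a-5p, -1.36, adjusted p = 0.0361, and hsa-miR-10b-5p, -2.79, adjusted p = 0.000204, by edgeR) and 2 between lines in MCS, hsa-miR-10b-5p being added (-4.61, adjusted p = 0.0314). Over all miRNAs the block called 40 of 250 in the interaction and 207 of 354 between lines in MCS. In DLD1 it called 3 members, as without it, hsa-miR-10b-3p again among them, beside 139 of 346 miRNAs. Low levels kept hsa-miR-10b-3p in HT29 (at most 0.116 CPM) and hsa-miR-196b-3p in both lines (at most 8.47 CPM) below the 10 CPM minimum for a test.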

Other observations

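miR-99a, miR-99b and miR-100 are usually placed in the same ancient family as miR-10, but they lie outside the HOX clusters. hsa-miR-99b-5p measured 375 and 400 CPM in DLD1 2D and 185 and 191 CPM in DLD1 MCS. It was lower in both MCS libraries, with a log2 fold change of -0.64 (adjusted p = 0.0195 by edgeR). In HT29 hsa-miR-99b-5p measured 79336 and 33216 CPM in 2D and 27729 and 20943 CPM in MCS, with a log2 fold change of -1.76 that was not called (adjusted p = 0.977). Replicate 1 was above replicate 2 in each HT29 culture, as it was for hsa-miR-10a-5p and hsa-miR-10b-5p.

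hsa-miR-100-5p measured 812 and 762 CPM in DLD1 2D and 707 and 630 CPM in MCS, lower in both MCS libraries, but on the normalized scale the groups overlapped (732 and 653 against 683 and 845 CPM), with a log2 fold change of 0.14 (adjusted p = 0.622 by edgeR). In HT29 it measured 281 and 96.3 CPM in 2D and 10.8 and 6.87 CPM in MCS. Both HT29 MCS libraries were lower than both 2D libraries, with a log2 fold change of -4.98 that was not called (adjusted p = 0.642). hsa-miR-99a-5p had 10 to 83 counts per library and was not tested.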
